A study of Mus musculus with 6 samples.

Results

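The 8 genes described here carry the MHC class I antigen presentation pathway of the mouse: the heavy chain genes H2-K1, H2-D1 and H2-T23, the light chain gene B2m, the peptide transporter genes Tap1 and Tap2, the loading factor gene Tapbp, and Nlrc5, a regulator of their transcription. They were chosen by name from a table of 33919 genes, and all 8 were among the 16620 genes with enough counts to be tested. The libraries came from RNA labelled as aorta, with 3 from mice labelled KO and given angiotensin II (Ang II) and 3 from mice labelled WT and given Ang II, the vasoconstrictor hormone of the renin system. Every library thus carries the Ang II treatment, and the comparison is between genotypes only. The enzyme named in the title, endothelial OTUD1, removes ubiquitin from proteins. The sources used here do not give the deleted part of the gene, any Cre driver, the strain and age of the mice, or the dose and duration of Ang II.

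Class I molecules display peptides from inside the cell to CD8 T cells. The proteasome cuts proteins into peptides, the TAP transporter carries them into the endoplasmic reticulum, and tapasin holds an empty heavy chain with its light chain, beta-2-microglobulin, beside TAP until a peptide binds. Nearly all nucleated cells make class I molecules, endothelium included, and interferons raise the whole set, in part through NLRC5. Class II molecules are made mainly by macrophages, dendritic cells and B cells and are controlled by a different regulator, CIITA.

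The promoters of 3 members are shown because they hold the control letters that class I genes are known for and belong to the 3 most abundant members. Each window runs from 250 bases before to 50 bases after the annotated start (RefSeq, build GRCm38.p6). H2-K1 lies at chr17:34000298-34000597 on the minus strand, H2-D1 at chr17:35262844-35263143 on the plus strand and B2m at chr2:122147437-122147736 on the plus strand. Capitals mark matches to any of the 5 motifs searched.
H2-K1: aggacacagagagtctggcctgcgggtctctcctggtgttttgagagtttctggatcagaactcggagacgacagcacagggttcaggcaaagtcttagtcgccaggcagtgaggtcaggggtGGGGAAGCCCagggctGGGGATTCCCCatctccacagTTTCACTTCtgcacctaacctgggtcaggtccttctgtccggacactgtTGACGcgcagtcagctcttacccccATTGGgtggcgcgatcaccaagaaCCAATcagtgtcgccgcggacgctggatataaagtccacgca
H2-D1: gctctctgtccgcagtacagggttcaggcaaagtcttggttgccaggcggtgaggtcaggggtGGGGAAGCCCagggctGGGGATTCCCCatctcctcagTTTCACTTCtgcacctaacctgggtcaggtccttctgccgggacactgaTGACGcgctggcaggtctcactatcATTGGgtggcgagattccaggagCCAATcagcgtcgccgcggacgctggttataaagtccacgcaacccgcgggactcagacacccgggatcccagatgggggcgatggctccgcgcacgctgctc
B2m: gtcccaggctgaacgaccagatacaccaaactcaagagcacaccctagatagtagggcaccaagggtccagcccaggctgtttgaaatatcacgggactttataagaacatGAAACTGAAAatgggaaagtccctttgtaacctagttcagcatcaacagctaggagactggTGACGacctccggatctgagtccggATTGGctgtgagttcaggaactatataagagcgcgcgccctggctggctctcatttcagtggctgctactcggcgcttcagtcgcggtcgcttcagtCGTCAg

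The motifs were searched on both strands in the 7 windows that matched 6 of the members, with Tap2 and Nlrc5 unmatched. The Y-box letters CCAAT were found for 6 of these 6 genes, against 37.4% of all 32851 promoter windows of the same length. The cyclic AMP response letters TGACG were found for 4 of them, B2m, H2-K1, Tap1 and H2-D1, against 20.8%. The interferon-type letters GAANNGAAA were found for H2-K1 and H2-D1, against 7.52%. A form of other spacing, GAAA repeated after 2 bases, was found for B2m and H2-T23, against 3.44%. It does not contain the first form, and no member matched both. The kB-type letters, GGG and CCC with 4 bases between, were found for H2-K1 and H2-D1, against 11.9%, with matches that overlap each other. The longest unbroken run shared by the H2-K1 and H2-D1 windows was 47 bases. A match is a description of the letters and shows no binding.

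Libraries held 62.3 M to 71.5 M counts each, and 17.3 M to 23.4 M once mitochondrial genes and their nuclear copies were set aside. The 8 members together held 48468, 50301 and 49428 counts in the libraries labelled KO, against 52584, 47296 and 48446 in those labelled WT. As a share of counts outside the mitochondrial genes and copies these sums were 0.211% to 0.215% under the KO label and 0.269% to 0.273% under the WT label, and their summed CPM (counts scaled to library size) was 681 to 688 under KO and 774 to 787 under WT, without overlap. Otud1, the gene named in the title, had 1033, 1141 and 1223 counts in the libraries labelled KO, against 593, 699 and 615 in those labelled WT (log2 fold change 0.63, SE 0.12, adjusted p = 0.0039). It was thus higher under the KO label. The groups are therefore named as labelled, and every direction given depends on those labels. The tissue label stands beside unusual markers, and the extraction protocol speaks of adipose RNA. The summed level of 10 skeletal muscle markers was 26311 to 27173 CPM in libraries labelled KO and 19821 to 20315 CPM in those labelled WT, while that of 8 smooth muscle markers was 177 to 181 CPM under the KO label and 543 to 551 CPM under the WT label.

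B2m was the most abundant member, at 225 ± 3.31 FPKM in the libraries labelled KO and 225 ± 4.14 FPKM in those labelled WT (SD, n = 3 each; FPKM is scaled to transcript length and library size, so levels compare between genes). H2-D1 followed at 83.7 ± 4.17 FPKM under the KO label and 80.9 ± 3.68 FPKM under the WT label, and H2-K1 at 56.5 ± 3.19 FPKM under the KO label and 64.0 ± 4.32 FPKM under the WT label. These 3 genes were far above the rest, and their ranges did not touch each other in either group. H2-T23, which encodes the nonclassical molecule Qa-1 that NK cell receptors read, was at 8.16 ± 0.503 FPKM in libraries labelled KO and 8.51 ± 0.799 FPKM in those labelled WT. Tapbp, which encodes tapasin, was at 7.80 ± 0.860 FPKM under KO and 8.31 ± 0.826 FPKM under WT, so these neighbours in the order did not differ beyond their spread. Below them came Tap2 at 2.87 ± 0.392 FPKM under KO and 3.18 ± 0.369 FPKM under WT, and Tap1 at 1.85 ± 0.146 FPKM under KO and 1.90 ± 0.147 FPKM under WT. Nlrc5 was lowest, at 0.413 ± 0.0694 FPKM under KO and 0.442 ± 0.0688 FPKM under WT. The order from B2m to Nlrc5 was the same in both groups.

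**Figure D1:**
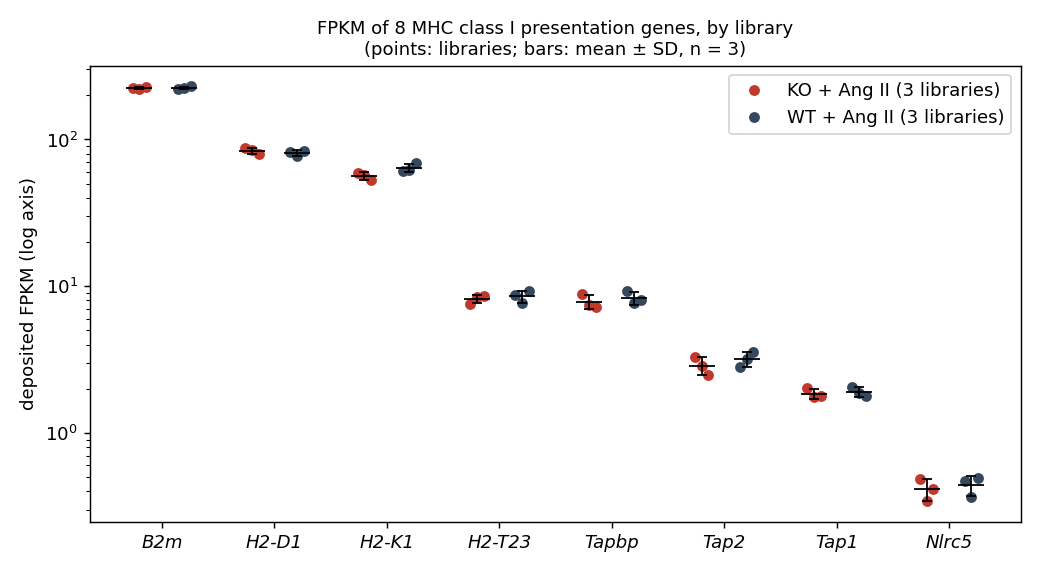
Deposited FPKM (log axis) of the 8 class I genes, with 1 point per library and the mean ± SD of 3 libraries, KO label left of WT label. The levels span from about 225 FPKM for B2m to about 0.4 for Nlrc5, and in each gene except H2-K1 the points of the groups overlap.

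Class I genes differed little between the genotypes. H2-K1 was 1.26-fold lower in the libraries labelled KO and B2m 1.11-fold lower. None of the 8 members was higher, and the other 6 did not pass the test. Thus 2 of 8 members were called lower, where 10.5% of all tested genes were, and 0 were called higher, where 11.5% of all were (edgeR's quasi-likelihood test, adjusted over all 16620 genes). The fitted log2 fold changes of the members lay between -0.33 and -0.10, with a median of -0.23 beside -0.020 for all tested genes. In CPM, the 3 libraries labelled KO lay below the 3 labelled WT for 5 of 8 members, where 19.4% of all genes did so, and above for 0 of 8, where 19.3% did. In FPKM, 1 of 8 lay below, where 12.8% of all genes did, and 0 above, where 26.8% did. In bulk RNA, fewer cells of a type and less RNA per cell cannot be told apart.

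Among the heavy chains, H2-K1 (ENSMUSG00000061232, chromosome 17, 33996017 to 34000347, minus strand, GRCm38), a classical molecule that presents peptides to CD8 T cells, had 176, 177 and 169 CPM in libraries labelled KO, against 211, 220.1 and 224 CPM in those labelled WT. All KO-labelled values were below all WT-labelled ones, in CPM and in FPKM. The log2 fold change was -0.33 (SE 0.043, 95% interval -0.42 to -0.23, adjusted p = 0.00028), and the call held when any single library was left out. H2-D1 (ENSMUSG00000073411, chromosome 17, 35262730 to 35267499, plus strand), the other classical heavy chain, had 228, 230.0 and 221 CPM under KO, against 249, 241 and 239 CPM under WT. Those groups did not overlap in CPM but did in FPKM. Its log2 fold change was -0.10 (95% interval -0.19 to -0.016, adjusted p = 0.092), so a fall of more than 1.14-fold lies outside the interval. H2-T23 (chromosome 17, 36029773 to 36032855, minus strand) had 22.1, 25.7 and 26.5 CPM under KO, against 29.3, 27.0 and 29.6 CPM under WT, and a log2 fold change of -0.21 (95% interval -0.41 to -0.0030, adjusted p = 0.14).

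B2m (ENSMUSG00000060802, chromosome 2, 122147686 to 122153083, plus strand), whose product pairs with every classical heavy chain, had 195, 202 and 212 CPM in libraries labelled KO, against 224, 234 and 219 CPM in those labelled WT. The groups did not overlap in CPM. The log2 fold change was -0.15 (SE 0.046, 95% interval -0.26 to -0.050, adjusted p = 0.037). Leaving out KO-labelled library 1 or 2 ended this call (adjusted p = 0.13 and 0.12), as did leaving out WT-labelled library 1 or 2 (adjusted p = 0.089 and 0.12). With the replicate number as a block the adjusted p was 0.065.

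None of the peptide-loading members passed the test. Tap1 (chromosome 17, 34187553 to 34197225, plus strand), which encodes a subunit of the transporter, had 11.2, 10.2 and 10.5 CPM under KO, against 13.3, 12.4 and 10.8 CPM under WT, with a log2 fold change of -0.20 (95% interval -0.45 to 0.052, adjusted p = 0.26). Its partner Tap2 (chromosome 17, 34203527 to 34216321, plus strand) had 12.5, 11.5 and 10.2 CPM under KO, against 12.4, 14.7 and 14.9 CPM under WT (-0.30, interval -0.56 to -0.036, adjusted p = 0.10). Both genes overlapped between groups. Tapbp (chromosome 17, 33915899 to 33926197, plus strand) had 32.2, 28.5 and 28.4 CPM under KO, against 39.2, 33.8 and 32.4 CPM under WT (-0.24, interval -0.45 to -0.039, adjusted p = 0.090). Its groups were separated by a narrow gap. Tap1 overlaps Psmb9 on the opposite strand by 212 bases, and with the strand setting of the counts unknown, reads there cannot be assigned to either.

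Nlrc5 (chromosome 8, 94434356 to 94527272, plus strand), the class I transactivator, had 296, 228 and 277 counts under KO, against 316, 227 and 291 counts under WT. The groups overlapped, and the log2 fold change of -0.24 had a wide interval of -0.67 to 0.18 (adjusted p = 0.43). A fall of up to 1.59-fold was within the interval, so a change of the size seen for H2-K1 was not detectable in Nlrc5 with these libraries.

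**Figure D2:**
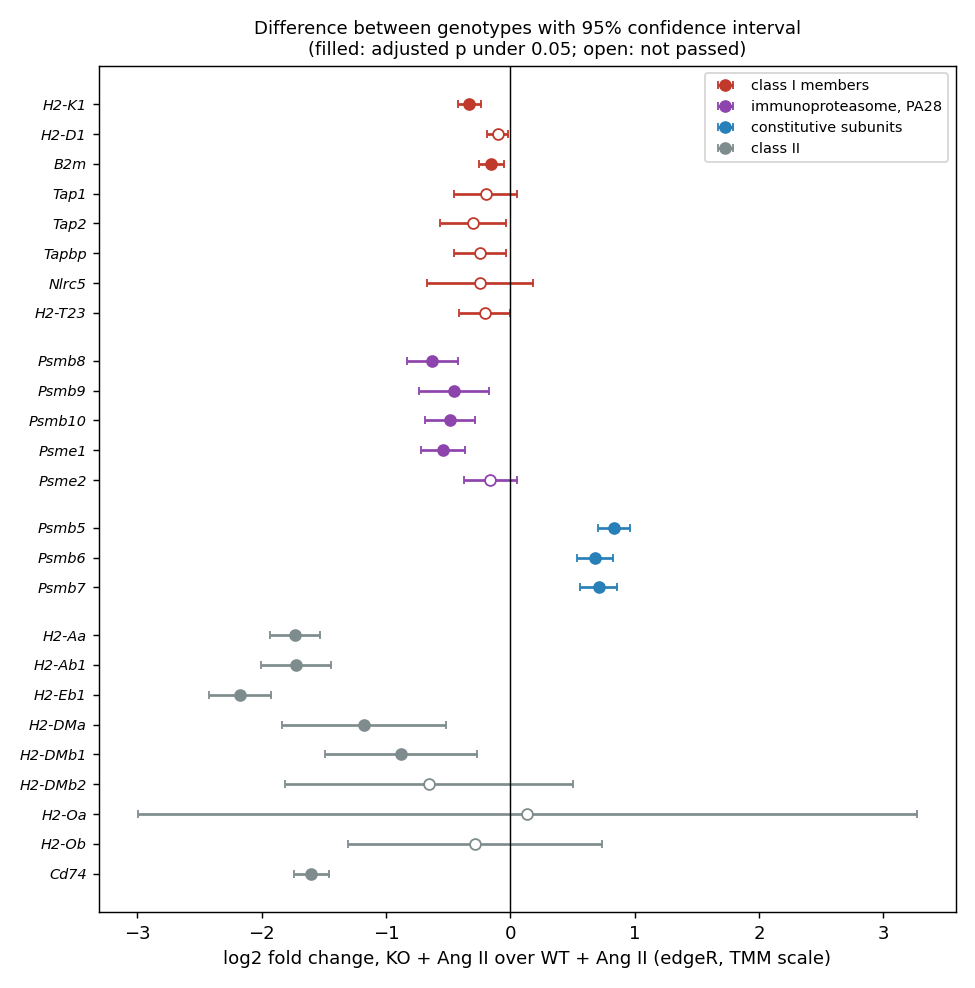
Fitted log2 fold change, KO label over WT label, with 95% confidence intervals (edgeR, CPM scaled by trimmed means) for the 8 members, the immunoproteasome and PA28 genes, the constitutive catalytic subunits and the class II genes. Filled points passed an adjusted p of 0.05. The members sit between -0.33 and -0.10, the constitutive subunits between 0.68 and 0.83, and H2-Aa at -1.73.

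The sign of the smallest member change, that of H2-D1, depended on the scaling. On the deposited FPKM scale, limma on log2(FPKM + 1) called 0 of 7 tested members, where 41.2% of genes were called (32.1% higher and 9.12% lower), and Nlrc5 was under the FPKM minimum. H2-D1 had a log2 change of 0.048 there, B2m -0.0024 and H2-K1 -0.18 (adjusted p = 0.65, 0.98 and 0.13). The median gene was also higher on that scale, at 0.15 against -0.020 by edgeR, and among all genes called 2763 were higher and 785 lower, against 1907 and 1751 by edgeR. Relative to the median gene, deposited FPKM and edgeR gave close values, with medians over 8605 and 16620 tested genes. H2-K1 was at -0.33 on the FPKM scale and -0.31 by edgeR, H2-D1 at -0.10 and -0.083, B2m at -0.15 and -0.13, and Tap2 at -0.26 and -0.28. Quantile-normalized FPKM gave log2 changes of -0.50 for H2-K1, -0.29 for H2-D1 and -0.27 for B2m, with the median gene at 0.020. Those of Tap1 and Tap2 were not lower there than by edgeR. DESeq2 called 5 of 8 members lower, where 12.7% of all genes were (12.6% higher, 25.3% in all), adding H2-D1, Tap2 and Tapbp (adjusted p = 0.034, 0.043 and 0.017).

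**Figure D3:**
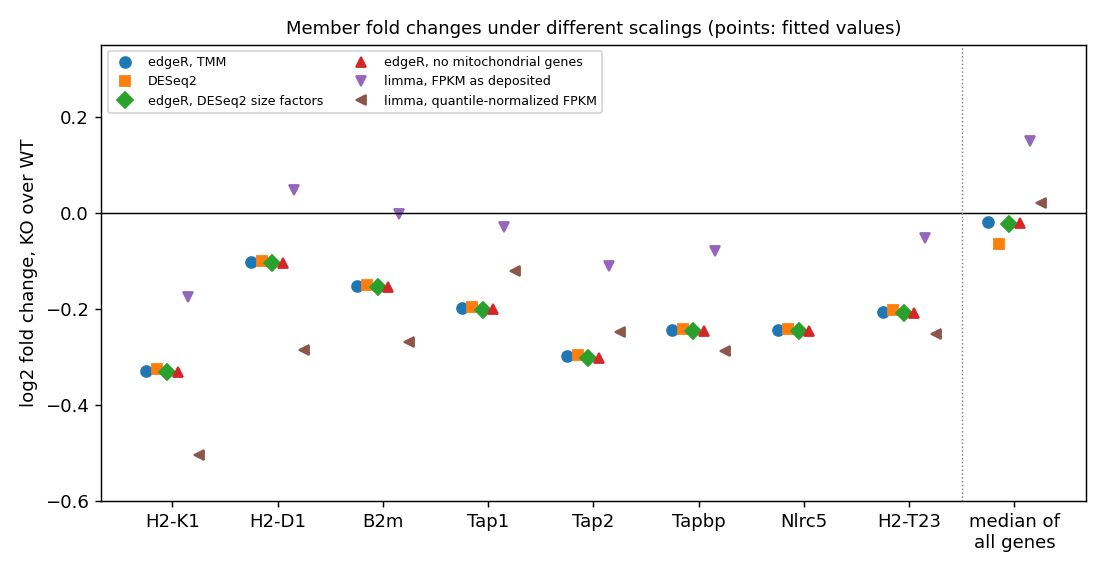
Log2 fold change, KO label over WT label, of each member under 6 combinations of test and scaling, with the median of all tested genes at the right. The count-based fits lie close together for each gene. The deposited FPKM scale raises every point together with the median gene, to 0.15, puts H2-D1 above 0 and has no point for Nlrc5. Quantile-normalized FPKM puts H2-K1 at -0.50, H2-D1 at -0.29 and B2m at -0.27, below their count-based fits, with the median gene at 0.020. It does not lower Tap1 or Tap2 below edgeR.

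Ratios within a library do not depend on its scaling. The FPKM ratio of H2-K1 to H2-D1 was 0.678, 0.676 and 0.669 in libraries labelled KO, against 0.744, 0.802 and 0.825 in those labelled WT. The KO-labelled ratios were nearly equal to each other and all below the WT-labelled ones, with a log2 difference of -0.23. The ratio of H2-K1 to B2m was 0.265, 0.257 and 0.233 under KO, against 0.277, 0.275 and 0.300 under WT. These were the 2 of 28 member pairs whose ratios did not overlap between groups, chosen after their values were seen. An exact two-sided permutation test gave p = 0.1 for each, the smallest that 3 against 3 libraries allow, and 0.82 after adjustment over the 28 pairs. Class I genes are alike in sequence, and the sources used here do not say how the authors treated reads that match several genes. Of all 50-base windows in annotated H2-K1 transcripts (GENCODE M21), 9.63% also occurred in another gene and 4.08% in H2-D1. For H2-D1 12.8% were shared, for H2-T23 13.6%, and for B2m and Nlrc5 0%.

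Of 24 other class I heavy chain genes of the H2 region that were listed, 17 were in the table and 12 could be tested. Counts called by edgeR in this and the later lists stand beside 10.5% of all tested genes lower and 11.5% higher. H2-Q10 was higher in the libraries labelled KO, and H2-T22, H2-Q6 and H2-Q4 were lower. The 8 others did not pass, and the median log2 change was -0.36. H2-Q10 (chromosome 17, 35470089 to 35474563), which encodes a secreted class I molecule known from liver, had 3.90, 3.29 and 3.53 FPKM under KO, against 2.16, 2.33 and 2.10 FPKM under WT. Its groups were well apart, and the gene was 1.46-fold higher (adjusted p = 0.0044), a call that also held on the FPKM scale (adjusted p = 0.0020). H2-Q6 was 1.34-fold, H2-T22 1.33-fold and H2-Q4 1.28-fold lower (adjusted p = 0.0052, 0.0047 and 0.0085). Those calls were lost on the FPKM scale (adjusted p = 0.067, 0.11 and 0.15). Shared 50-base windows made up 32.0% of H2-Q6, 34.5% of H2-T22, 21.8% of H2-Q4 and 19.0% of H2-Q10, so the split of reads among these genes is uncertain.

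Of 6 tested class I-like genes outside the H2 region, 1 was lower, where 10.5% of all tested genes were, and 5 did not pass. Azgp1, which encodes a secreted zinc-binding glycoprotein, was the one called, with 4, 0 and 0 counts under KO, against 26, 75 and 76 counts under WT. Its call was lost with no filter on FPKM, where 0 of 6 were lower, and it was not tested at a mean CPM of at least 1. Hfe, which encodes a regulator of iron uptake, had a log2 change of 0.28 (adjusted p = 0.11, and 0.0096 on the FPKM scale). Cd1d1, which encodes a lipid-presenting molecule, was at -0.16 (adjusted p = 0.45), and Procr, which encodes the endothelial protein C receptor, at -0.16 (adjusted p = 0.71; its sign changed on the FPKM scale).

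The proteasome genes that feed the pathway moved in opposite directions. Of the 5 immunoproteasome and PA28 genes, which encode the interferon-inducible catalytic subunits and their activator, 4 were lower in libraries labelled KO and 0 were higher. Their median log2 change was -0.48. Psmb8 had 4.86, 4.45 and 4.42 FPKM under KO, against 6.05, 5.74 and 7.40 FPKM under WT, without overlap, and was 1.55-fold lower (adjusted p = 0.00066). Psme1 was 1.46-fold, Psmb10 1.40-fold and Psmb9 1.37-fold lower (adjusted p = 0.00061, 0.0030 and 0.025). Psmb8, Psme1 and Psmb10 also passed on log2(FPKM + 1) (adjusted p = 0.015, 0.013 and 0.044). Psmb10 did not pass with a pseudocount of 0.1 (adjusted p = 0.065), and with no filter on FPKM neither Psmb10 nor Psmb8 passed (adjusted p = 0.14 and 0.062), while Psme1 did (adjusted p = 0.040). Psme2 was at -0.16 (adjusted p = 0.28). The Psmb9 call was lost on the FPKM scale (adjusted p = 0.071) and on leaving out any KO-labelled library or WT-labelled library 1 or 2 (adjusted p between 0.062 and 0.097). The 3 constitutive catalytic subunits that the inducible ones replace were all higher. Psmb5 had 132, 121 and 124 FPKM under KO, against 66.7, 57.2 and 66.9 FPKM under WT, and was 1.78-fold higher (adjusted p = 2.4e-06). Psmb7 was 1.64-fold and Psmb6 1.60-fold higher (adjusted p = 2.9e-05 and 3.3e-05).

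Each inducible subunit was set against the constitutive one it replaces, within each library. The FPKM ratio of Psmb8 to Psmb5 was 0.0368, 0.0369 and 0.0357 under KO, against 0.0907, 0.1003 and 0.111 under WT, or 2.75-fold lower. The ratio of Psmb9 to Psmb6 was 0.0428, 0.0424 and 0.0421 under KO, against 0.0882, 0.106 and 0.0850 under WT, or 2.18-fold lower. The ratio of Psmb10 to Psmb7 was 0.548, 0.561 and 0.500 under KO, against 1.29, 1.08 and 1.33 under WT, or 2.29-fold lower. None of the 3 ratios overlapped between groups, and an exact two-sided permutation test gave p = 0.1 for each, the smallest possible with 3 against 3 libraries, and 0.1 after adjustment over 5 ratios. Skeletal muscle markers were higher in the same libraries (7 of 10 higher, 0 lower), and their part in these ratios was not tested. Psmb8, Tap1, Tap2 and Psmb9 lie side by side on chromosome 17, with 495 bases between Tap1 and Psmb8 and 2072 between Psmb8 and Tap2.

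**Figure D4:**
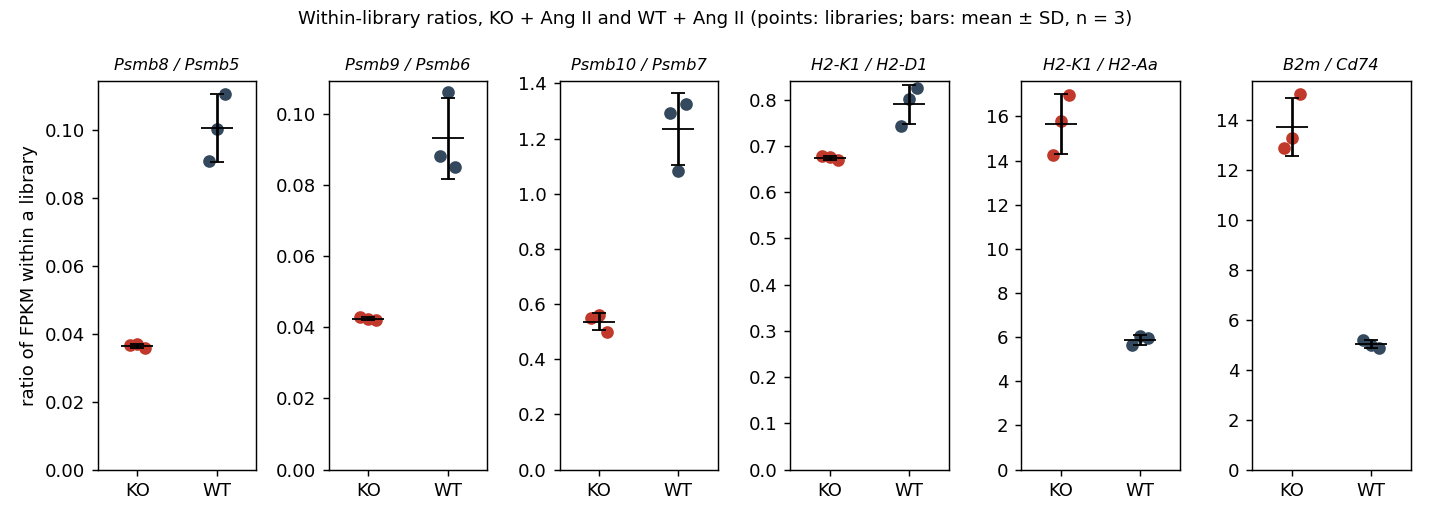
FPKM ratios of gene pairs within each library, KO label left of WT label, with the mean ± SD of 3 libraries and axes from 0. The inducible over constitutive proteasome ratios and H2-K1 over H2-D1 are lower under the KO label, and H2-K1 over H2-Aa and B2m over Cd74 are higher, with no overlap in any of the 6.

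Of 9 loading helper genes, 4 were lower and 0 higher, with a median of -0.25. Sec61b, which encodes part of the endoplasmic reticulum import channel, was 1.48-fold lower, and Pdia3, which encodes the disulfide isomerase ERp57 of the loading complex, was 1.47-fold lower (adjusted p = 0.0069 and 0.0055). Both calls also held on log2(FPKM + 1) (adjusted p = 0.022 and 0.030) but not with no filter on FPKM (adjusted p = 0.082 and 0.13), where 0 of 9 helpers passed. On the filtered FPKM scale 1 helper was higher, Tapbpl, which encodes a relative of tapasin and is named after its values were seen (adjusted p = 0.039, and 0.20 by edgeR). The chaperone genes Hspa5 and Calr, for BiP and calreticulin, were 1.23-fold and 1.19-fold lower (adjusted p = 0.0090 and 0.026), and neither call held on the FPKM scale (adjusted p = 0.19 and 0.49). The Calr call was also lost on leaving out any KO-labelled library or WT-labelled library 3 (adjusted p between 0.057 and 0.095).

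Among 13 genes for transcription factors that act on class I or class II promoters, 2 were lower and 0 higher, beside 10.5% and 11.5% of all tested genes. Creb1, which encodes a factor that binds the cyclic AMP response element, was 1.43-fold lower (adjusted p = 0.0058). On the FPKM scale 0 of 8 tested genes of this list passed, and 0 of 13 with no filter on FPKM. Ciita, the class II counterpart of Nlrc5, had 0.494 ± 0.132 CPM under KO and 1.45 ± 0.615 CPM under WT (SD, n = 3 each; adjusted p = 0.044). Its call was lost on leaving out any KO-labelled library or WT-labelled library 2 or 3 (adjusted p between 0.063 and 0.14). The Ciita call was also lost under the replicate block (adjusted p = 0.087) and with no low-count filter (adjusted p = 0.068). At a mean CPM of at least 1 Ciita was not tested. The NF-kB subunit gene Rela was at -0.34 (adjusted p = 0.094), and it passed with DESeq2 (adjusted p = 0.024) and without WT-labelled library 2 (adjusted p = 0.025). In the interferon list, 7 genes for receptors and kinases were tested and 0 passed by edgeR's quasi-likelihood test. Jak1 was at -0.24, Ifngr2 at -0.25, Ifnar1 at 0.17 and Tyk2 at 0.16 (adjusted p between 0.10 and 0.40); Jak1 alone had an unadjusted p below 0.05, at 0.028, and it passed with DESeq2 (adjusted p = 0.022) and without KO-labelled library 3 (adjusted p = 0.043). Ifng, the gene of interferon-gamma, had 0 counts in all 6 libraries.

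Of 9 class II genes, 6 fell and 0 rose under the KO label, and the median log2 change was -1.18. H2-Aa, Cd74 and H2-Eb1 were at -1.73, -1.60 and -2.17 (adjusted p = 3.3e-07, 4.4e-08 and 3.2e-07). H2-Aa, a class II chain encoded in the same region of chromosome 17, had 4.17, 3.60 and 3.13 FPKM under KO, against 10.9, 10.2 and 11.5 FPKM under WT, and its 95% interval of -1.94 to -1.53 lay apart from that of H2-K1. The FPKM ratio of H2-K1 to H2-Aa was 14.3, 15.8 and 17.0 under KO, against 5.63, 6.04 and 5.97 under WT, a log2 difference of 1.41. The ratio of B2m to Cd74, the class II invariant chain gene, was 12.9, 13.3 and 15.1 under KO, against 5.21, 4.98 and 4.89 under WT, a log2 difference of 1.45. Neither ratio overlapped between groups, and the exact permutation p was 0.1 for each, the smallest possible.

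Markers of cells that could carry class I RNA differed between the groups, and their part in the class I values was not tested. The macrophage and monocyte list had 5 of 12 genes lower and 1 higher, with a summed level of 154 to 162 CPM under KO and 216 to 227 CPM under WT. Among them Adgre1, Lyz2 and Csf1r were at -0.80, -0.79 and -0.71 on the log2 scale. The 12 log2 changes of this list ran from -1.10 to 2.90, with 9 of them below 0. Of 10 endothelial markers, 4 were lower and 2 higher, at 577 to 586 CPM under KO and 618 to 641 CPM under WT, with Vwf at 1.27, Pecam1 at 0.23 and Egfl7 at -0.54. All 8 fibroblast markers were lower, at 201 to 224 CPM under KO and 588 to 622 CPM under WT, with Col1a1, Col1a2 and Dcn at -2.10, -2.18 and -1.69. Of 8 smooth muscle markers 7 were lower, with Acta2 at -2.07 and Tagln at -1.92, while the skeletal muscle genes Acta1, Myh4 and Myh2 were at 0.70, 1.43 and 1.04. Adipocyte markers moved both ways, with 4 of 8 higher and 2 lower, at 944 to 1011 CPM under KO and 791 to 796 CPM under WT. T and NK cell markers were low in every library. Of 18 listed, 9 had enough counts to test and 1 was lower, where 10.5% of all tested genes were. Their summed level was 3.62 to 4.90 CPM under KO and 6.42 to 7.78 CPM under WT. Cd3e, a subunit gene of the T cell receptor complex, had 0, 0 and 0 counts under KO, against 12, 22 and 42 counts under WT. Cd8a, whose product binds class I molecules and which is named here after its values were seen, had 15, 6 and 15 counts under KO, against 11, 15 and 11 counts under WT. Ptprc, the pan-leukocyte gene for CD45, was at -0.60 (adjusted p = 0.061, and 0.022 with DESeq2). With DESeq2 3 of the 18 genes were lower, and with a mean CPM of at least 1 or counts divided by 4, where 1 and 2 could be tested, 0 were. Of 5 B cell markers 4 were tested and 0 passed by edgeR's quasi-likelihood test, at an unadjusted p of 0.10 or more, with 1.19 to 2.11 CPM in all under KO and 1.56 to 2.60 CPM under WT.

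The genes whose pattern was most like that of the members were Dbnl, Zc3h7b, Akr1a1, Selenop and Ndufs6. Likeness was the root mean square difference between a gene's centred log2 CPM profile over the 6 libraries and the mean profile of the members, among 7875 genes of at least 5 CPM. It ran from 0.024 for Dbnl to 0.031 for Ndufs6, on the log2 scale. Their own log2 changes lay between -0.27 and -0.19, which follows from picking them on the same 6 libraries.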

How the data were processed

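Per the labels' protocols, 6 poly(A) RNA libraries were sequenced as Illumina read pairs. The authors deposited whole-number counts per gene, with no normalization, and FPKM values, per the file headers. The sources used here name neither the counting and FPKM programs nor the strand setting. Bowtie 0.12.2, HISAT2 2.0 and mm8 appear, without a role, per the submitters' processing notes. Gene coordinates in the table equalled GENCODE M21 (GRCm38) for 85.9% of shared genes and for 7 of the 8 members, Tapbp excepted, so positions are given as GRCm38. No row lacked a gene name.

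Counts were tested with edgeR 4.0.16 in R 4.3.3 (filterByExpr, trimmed mean of M values, quasi-likelihood F-test, two-sided, Benjamini-Hochberg over 16620 genes, threshold 0.05). Intervals are 95% intervals of the fit. Alternatives were DESeq2 1.42.0, limma 3.58.1 on log2(FPKM + 1), other filters and scalings, a replicate block and leaving out each library. Between 33.0% and 34.9% of counts from 1 to 40 were multiples of 4; 1 alternative divided counts by 4, and the cause was not tested. Intervals cover counting error and the spread between these libraries; the labels give no animal identifiers, so that spread may be technical. The members, lists, ratios and motifs were chosen with earlier results of these data known. From each other pathway list up to 4 genes with the smallest p were named (all genes of lists of 5 or fewer), and from each cell type list the first written and up to 2 with the smallest p, B cells and adipocytes left out. One gene that the rule names is not reported here. Scripts were tested on simulated counts. Figures used matplotlib 3.10.9.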

Additional observations from a re-analysis of the deposited data

How the results depend on the processing

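All 8 members kept a log2 change below 0 in each of the 13 alternatives fitted to counts. The count of members called moved from 2 to 5 with DESeq2, to 4 with a mean CPM of at least 1, to 4 with counts divided by 4, to 4 with quantile-normalized FPKM and to 3 without mitochondrial genes or copies. Among all genes 22% were called, against 18.5% with DESeq2 (25.3% of those given an adjusted p), 29.4% with a mean CPM of at least 1, 28.4% with counts divided by 4 and 34.9% with quantile-normalized FPKM, where 7 members were tested. The members' count was 1 without a low-count filter (11.3% of all genes called), 1 with the replicate block (19.6%), and 1 to 2 when a library was left out (16.4% to 18.2%). It was 0 in each of the 3 fits of deposited FPKM. Those fits called 41.2% of all genes with a pseudocount of 1, 39.3% with 0.1 and 10.7% with no filter. H2-K1 did not pass on deposited FPKM (-0.18 at pseudocounts of 1 and 0.1 and with no filter). B2m did not pass with no low-count filter (-0.15), with the replicate block (-0.15) or on deposited FPKM (-0.0024 in each of 3 fits), and ranged from -0.18 to -0.12 over the libraries left out. H2-D1 passed with DESeq2 (-0.10), a mean CPM of at least 1 (-0.13), no mitochondrial genes or copies (-0.11), counts divided by 4 (-0.12) and quantile-normalized FPKM (-0.29), and turned to 0.048 in each of the 3 fits of deposited FPKM. Tapbp passed with DESeq2 (-0.24), a mean CPM of at least 1 (-0.27), counts divided by 4 (-0.26) and quantile-normalized FPKM (-0.29), and Tap2 with DESeq2 (-0.30). Procr turned to 0.0067, 0.019 and 0.0067 on deposited FPKM and ranged from -0.35 to 0.052 over the libraries left out. The cause of these differences was not tested. All genes called numbered 3658 and stayed between 2878 and 5263. Deviations from the group means gave no sign of pairing by replicate number, though with so few libraries they cannot exclude it. Same-numbered libraries had correlations of deviations of 0.024, -0.0086 and 0.018, and different-numbered ones lay between -0.047 and 0.029. The block called 3255 genes in all. The 7 ratios printed kept their direction with counts in place of FPKM, chosen after seeing the data, and with each library left out. The lowest member, Nlrc5, had the widest interval.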
